A study of Mus musculus with 8 samples.

Results

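Non-classical monocytes of the mouse posterior eye were defined here as sorted immune cells in which at least 3 of the 5 genes Ace, Treml4, Adgre4, Cd300e and Eno3 were detected, with 0 UMIs of the T cell gene Cd3e and of the B cell gene Cd79a. A UMI (unique molecular identifier) counts 1 captured transcript. The rule found 428 such cells among 11223 kept cells, which were those of 11624 barcodes whose detected genes numbered 200 to 5000 and whose mitochondrial share was no more than 15%. The members were thus chosen by measured values, the UMIs of these genes. Of these, 414 came from the 2 wildtype (WT) libraries and 14 from the 2 Nr4a1-/- libraries. The 5 genes were chosen with results of these libraries known, so their own levels are given as a description and support nothing.

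The study used CITE-seq, in which transcripts and antibody-derived tags (ADTs, barcoded antibodies that report surface protein) are counted in the same cells, here with 87 antibodies and no isotype control. Live CD45+ cells from retina, RPE, choroid and sclera of young adult female mice were enriched and sorted, with eyes pooled into 1 library per group. The groups were WT control (C57BL/6J, no laser), WT laser (C57BL/6J, laser-induced choroidal neovascularization, collected on the third day), Nr4a1-/- control (no laser) and Nr4a1-/- laser (the same lesion), and the controls carry the word sham in their treatment label. The genotype and treatment labels of every ADT record, those of the WT and laser groups included, read Nr4a1-/- and sham. These labels go against the titles of the records, and groups were taken from the titles. The labels give C57BL/6J for all groups, whereas the study's methods give B6;129S2-Nr4a1tm1Jmi/J for the germline Nr4a1-/- mice, so genotype and strain background cannot be told apart. The Nr4a1-/- control library also belongs to another numbered library set than the other libraries. With 1 library per group no difference could be tested against replicates, and all intervals below are exact 95% intervals that cover counting error only.

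Non-classical monocytes are blood monocytes that crawl along the inner wall of small vessels and clear debris from it. In mice they carry much CD43, the product of Spn, and little Ly-6C, and they arise largely from classical Ly-6C-high monocytes through a program that needs the nuclear receptor NR4A1. Classical monocytes, by contrast, carry CCR2 and enter inflamed tissue. Perfusion or vascular position is not recorded in these counts, so cells within vessels and cells within tissue cannot be told apart.

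Depth differed between libraries, with 7848548 to 38052948 RNA UMIs per library and a median of 3676 to 7618 UMIs per kept cell. Non-classical monocytes had a median of 7115.5 UMIs in WT control and 8078.5 in WT laser, against 9956.5 and 11816 in classical monocytes. Their median mitochondrial share was 1.21% and 1.07%. Any pair of libraries shared 1 to 7 cell barcodes, and 0 barcodes were non-classical monocytes in both libraries of a pair.

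Non-classical monocytes were a larger part of the sorted cells in WT control than in WT laser and were nearly missing from the Nr4a1-/- libraries. They made up 242 of 3763 kept cells in WT control (6.43%, 5.67 to 7.26) and 172 of 3791 in WT laser (4.54%, 3.90 to 5.25). In Nr4a1-/- eyes they were 11 of 2020 cells without laser (0.545%, 0.272 to 0.972) and 3 of 1649 with laser (0.182%, 0.0375 to 0.531). The share in WT laser was 0.705 (0.577 to 0.861) times that in WT control. The Nr4a1-/- share was 0.0847 (0.0417 to 0.154) times the WT share without laser and 0.0401 (0.00819 to 0.119) times with laser. These are shares of sorted CD45+ cells and not numbers per eye, so from them alone fewer non-classical monocytes and more other immune cells cannot be told apart. For the genotype, the study's own flow cytometry counted fewer non-classical monocytes in Nr4a1-/- than in WT eyes, with and without laser.

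Because a deeper cell more often shows 3 of 5 genes, each cell was also thinned to 2000 UMIs before the rule was applied. The WT shares were then 136 of 3367 cells (4.04%, 3.40 to 4.76) without laser and 93 of 3545 (2.62%, 2.12 to 3.2) with laser, a ratio of 0.649 (0.493 to 0.852). No thinned Nr4a1-/- cell met the rule, with 0 of 1885 cells in the control, which allows a share of up to 0.159% by a floor of 3 counts (exact upper limit 0.196%), and 0 of 1230 in the laser library, which allows up to 0.244% (exact upper limit 0.299%). The direction of the WT difference was therefore the same with and without equal depth.

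**Figure D1:**
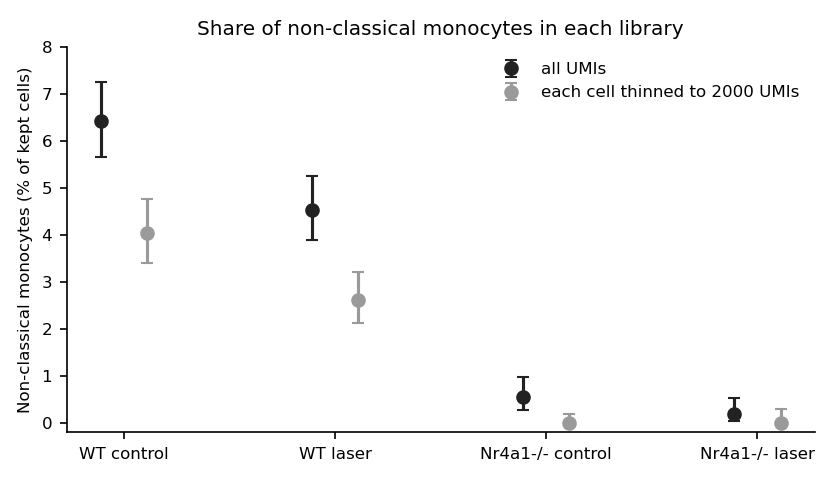
Share of kept cells (percent, y axis) that met the non-classical monocyte rule in each of the 4 libraries (x axis), with all UMIs and after thinning to 2000 UMIs; bars of error are exact 95% intervals. WT control was highest at 6.43% and the Nr4a1-/- libraries were below 1% in both settings.

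The relation to classical monocytes depended on how these were defined. Classical monocytes were cells with at least 4 of the 5 genes Ly6c2, Ccr2, Chil3, Vcan and F13a1 plus Csf1r, and numbered 100 in WT control and 127 in WT laser. Cells that met both rules were counted as non-classical. Part of the members in every library also met the classical rule, since more cells counted as classical once 4 non-classical genes were required. Non-classical cells were 70.8% (65.6 to 75.5) of both classes in WT control and 57.5% (51.7 to 63.2) in WT laser, against 11.6% and 6.52% in the Nr4a1-/- libraries. After thinning the WT values were 87.7% (81.5 to 92.5, 136 of 155 cells) and 85.3% (77.3 to 91.4, 93 of 109 cells). Few cells met the classical rule at that depth, so these values do not show whether the WT difference remains at equal depth. With 3 classical genes in place of 4 the values were 61.7% and 34.2%, and with 4 non-classical genes required they were 63.5% and 48.3%.

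The 5 genes of the rule encode an angiotensin-converting peptidase (Ace, chr11:105967945-105989964, plus strand), a TREM-like receptor (Treml4, chr17:48264295-48275360, plus strand), an adhesion G protein-coupled receptor of the F4/80 family (Adgre4, chr17:55749984-55853662, plus strand), an activating CD300 receptor (Cd300e, chr11:115051917-115062177, minus strand) and the muscle-type enolase (Eno3, chr11:70657202-70662513, plus strand), all in GRCm38/mm10. In WT control, Adgre4 was detected in 99.2% of non-classical monocytes, Ace in 94.6%, Treml4 in 93.8%, Eno3 in 75.2% and Cd300e in 61.6%. In WT laser the same genes were detected in 98.3%, 95.9%, 94.2%, 72.1% and 54.7%. Outside the class, Ace was seen in 19.0% of classical monocytes in WT control and 10.2% in WT laser, and Adgre4 in 39.0% and 22.8%, while Cd300e was seen in 0 of the 100 and 0 of the 127 classical cells. Eno3 was less particular, with 9.28% and 8.76% of microglia holding a UMI.

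All 5 genes were detected together in 115 WT control cells and 69 WT laser cells, 4 genes in 71 and 60, and 3 genes in 56 and 43. A further 168 cells over all 4 libraries held exactly 2 of the genes and no Cd3e or Cd79a, and so lay just outside. The values along this scale are given without a test. Spn was detected in 31.0% of WT control cells with 2 genes, 66.1% with 3 and 96.5% with all 5, and in 43.1%, 60.5% and 92.8% in WT laser. Ly6c2, which marks classical monocytes, was detected in 67.2%, 42.9% and 8.70% of the same WT control cells and in 43.1%, 53.5% and 11.6% in WT laser. Cells near the threshold thus held more Ly6c2 and less Spn than cells with all 5 genes.

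Nr4a1 (chr15:101254269-101274795, plus strand, GRCm38/mm10), the gene deleted in the mutant mice, was higher in non-classical monocytes than in the other classes compared. Its level was 860 CPM (UMIs of the gene scaled to a fixed total per library and class, 819 to 902) in WT control and 869 (824 to 916) in WT laser, with a UMI in 97.1% and 97.7% of cells. Classical monocytes held 274 and 244 CPM, microglia 210 and 171, and B cells 390 and 436. In Nr4a1-/- libraries transcripts counted as Nr4a1 remained, at 133 CPM (77.5 to 213) and 122 (25.2 to 357) in the few non-classical cells and at 38.9 to 177 in the other classes. Counts on the 3′ end do not show whether a transcript is functional, so these reads check only that the gene was lower in the mutant libraries.

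Against classical monocytes of the same library, non-classical monocytes held more of known non-classical genes such as Spn, Nr4a1 and Ear2 and fewer of several interferon-stimulated and chemokine genes. Of 6788 genes with at least 20 UMIs in the higher class of each WT library, 338 (4.98%) were at least 2-fold higher in non-classical cells in both libraries, and 219 (3.23%) were at least 2-fold lower. The genes of both class rules were left out of these counts, but genes that vary with them were not, so the ratios describe the class and do not test it. In the text below, paired values give WT control before WT laser, each as a ratio of CPM.

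**Figure D2:**
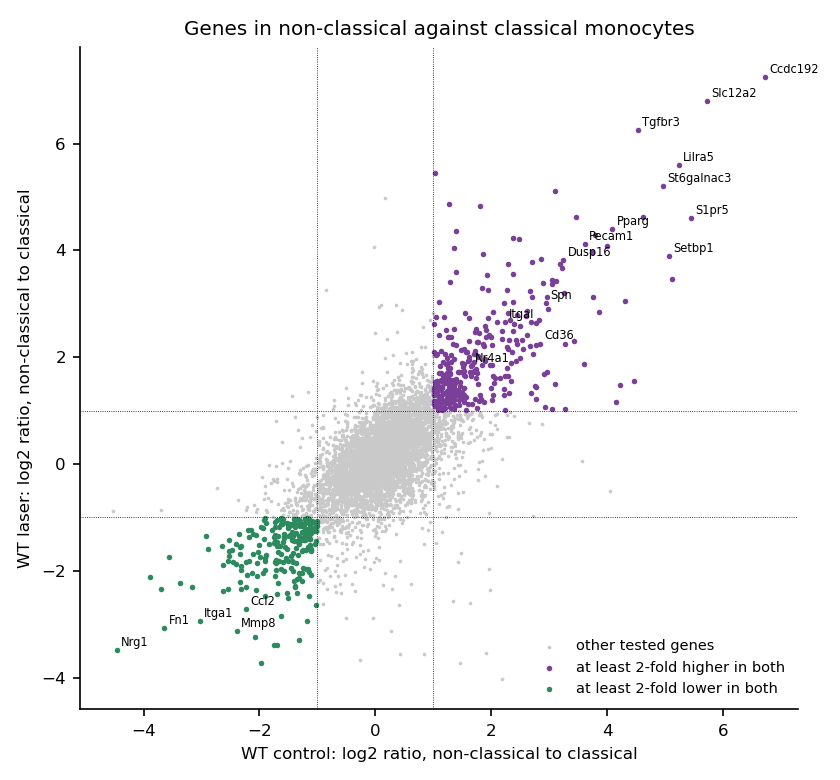
Log2 ratio of CPM in non-classical over classical monocytes for each gene, WT control on the x axis and WT laser on the y axis; lines mark 2-fold. Genes such as Slc12a2, Pparg, S1pr5 and Spn lie to the upper right and Fn1, Nrg1 and Itga1 to the lower left.

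The higher genes named by rank included Slc12a2, Pparg, Ear2, Bcl2 and S1pr5. Slc12a2, a sodium-potassium-chloride cotransporter, was 52.9-fold (22.5 to 164) and 111-fold (37.6 to 540) higher, and was detected in 64.5% and 58.1% of non-classical cells against 5% and 1.57% of classical cells. Pparg, a lipid-sensing nuclear receptor, was 17.1-fold (12 to 25.1) and 21-fold (14.9 to 30.6) higher, and Ear2, an eosinophil-associated ribonuclease, 16.0-fold (11 to 24.3) and 17.0-fold (11.6 to 25.8). Bcl2, which blocks mitochondrial cell death, was 13.8-fold (9.97 to 19.8) and 19.6-fold (13.2 to 30.3) higher. S1pr5, a sphingosine-1-phosphate receptor used in exit from bone marrow, was 43.5-fold (11.9 to 362) and 24.3-fold (10.9 to 67.3) higher. Dusp16, a phosphatase of stress kinases, was higher by 9.50-fold (8.08 to 11.2) and 14.2-fold (11.9 to 17.1), and Lilra5, Setbp1, Tgfbr3, St6galnac3 and Ccdc192 by 14.9-fold to 152-fold. Dnah12, a dynein heavy chain, had 0 UMIs in classical monocytes of either library. It was 18.6-fold and 18.7-fold higher against a floor of 3 counts per library, with exact lower bounds of 14.9-fold and 14.7-fold. The intervals are wide where classical cells held few UMIs, and the lower bounds are the safer values.

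The lower genes named by rank included Fn1, Nrg1, Itga1, Ccl2 and Mmp8. Fn1 (fibronectin) was 12.5-fold (10.6 to 14.8) and 8.42-fold (7.16 to 9.95) lower, and Nrg1 (neuregulin, a growth factor of the EGF family) 22.1-fold (14.9 to 34) and 11.2-fold (7.46 to 17.7). The other genes named by rank were the integrin gene Itga1 (8.16-fold and 7.71-fold), the chemokine genes Ccl2 (4.71-fold and 6.54-fold) and Ccl9 (4.14-fold and 3.6-fold), the collagenase gene Mmp8 (5.23-fold and 8.70-fold), and Ier3, S100a10, Clec4a2, Gas7 and Wfdc17, which were 3.52-fold to 5.15-fold lower.

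Known non-classical genes outside the rule mostly went with the label. Of 15 tested, 11 were at least 2-fold higher in both libraries and 0 were lower, with a median log2 ratio of 2.19 and 2.15 against 0.10 and 0.11 over all genes tested. Spn (chr7:127132232-127137823, minus strand, GRCm38/mm10) was 7.75-fold (5.89 to 10.4) and 8.05-fold (6.24 to 10.5) higher and Nr4a1 3.14-fold (2.77 to 3.58) and 3.56-fold (3.18 to 3.99). The checkpoint ligand gene Cd274 was 5.87-fold and 4.44-fold higher, the Fc receptor gene Fcgr4 6.42-fold and 2.53-fold, and the transcription factor genes Pou2f2 2.47-fold and 4.09-fold and Hes1 4.94-fold and 5.02-fold. Pglyrp1, a peptidoglycan-binding protein, was 6.52-fold and 13.8-fold higher, and Stap1 and Gngt2 were 3.07-fold to 5.05-fold higher. Cx3cr1, the fractalkine receptor, did not reach 2-fold at 1.51 (1.32 to 1.73) and 1.75, nor did Cebpb at 1.20 and 1.47, Clec4a1 at 1.5 and 1.6 or Clec4a3 at 1.39 and 1.43.

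Adhesion and trafficking genes separated the classes in both directions. Of 18 tested, 5 were higher and 2 lower. Itgal, the alpha chain of LFA-1 with which these monocytes hold to endothelium, was 4.71-fold and 6.29-fold higher, Itgax (CD11c) 8.65-fold and 10.7-fold, Pecam1 (CD31) 12.3-fold and 17.4-fold, and Itgb1 2.23-fold and 2.03-fold. The chemokine receptor gene Ccr1 was lower by 4.98-fold and 3.77-fold.

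Among 26 transcription factor genes, 6 were higher and 2 lower. Besides Nr4a1, Pou2f2 and Hes1, these were Tcf7l2, an effector of Wnt signaling, at 7.13-fold (5.42 to 9.56) and 6.47-fold (5.17 to 8.20), Ets1 at 7.77-fold and 8.73-fold, and Bhlhe40 at 3.37-fold and 3.24-fold. The macrophage factor gene Maf was lower by 2.20-fold and 5.56-fold. Of 17 survival genes, 3 were higher, namely Bcl2, Bcl2a1a (18.8-fold and 2.80-fold) and Bcl2a1d (6.83-fold and 2.73-fold), and 0 were lower. The Bcl2a1 genes are near-identical copies, so their separate values are uncertain.

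Lipid and phagocytosis genes were split. Of 21 lipid and scavenger genes, 3 were higher and 6 lower. Fabp4, a fatty acid carrier, had 507 UMIs in non-classical cells of WT control against 0 in classical cells, and 228 against 22 UMIs in WT laser. Against a floor of 3 counts it was 90.8-fold higher in WT control. The tetraspanin gene Cd9 was 3.36-fold and 4.88-fold higher. Lpl (lipoprotein lipase) was lower by 4.24-fold and 9.40-fold, Lyz2 (lysozyme) by 2.71-fold and 2.18-fold, Trem2 by 2.48-fold and 2.06-fold, and Npc2, Fabp5 and Lgals3 by 2.09-fold to 2.98-fold. Of 21 Fc receptor, complement and efferocytosis genes, 2 were higher and 4 lower. Cd36, a scavenger receptor gene, was 7.16-fold (5.69 to 9.11) and 4.77-fold (4.05 to 5.65) higher beside Fcgr4, while Fcgr1 (CD64) was lower by 2.69-fold and 3.99-fold, C3 by 3.34-fold and 2.52-fold, Msr1 by 2.22-fold and 4.04-fold and Cd93 by 2.84-fold and 5.72-fold.

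Interferon-stimulated and chemokine genes were on the lower side as groups. Of 29 interferon-stimulated genes, 0 were higher and 13 lower, with a median log2 ratio of -1.32 and -1.17. Isg15 was 2.77-fold and 2.50-fold lower, Ifi204 2.49-fold and 2.55-fold, Bst2 2.29-fold and 3.03-fold and Cxcl10 11.8-fold and 3.33-fold. Of 24 cytokine and chemokine genes, 0 were higher and 5 lower, all chemokine ligands of the CC family. Besides Ccl2 and Ccl9 these were Ccl6 (2.23-fold and 2.54-fold), Ccl7 (3.35-fold and 10.4-fold) and Ccl12 (3.08-fold and 7.22-fold). Without the highest cell of each class the log2 ratio of Ccl12 in WT control was 0.75, on the higher side.

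The MHC class II genes were lower in the median, with a log2 ratio of -0.54 in WT control and -1.17 in WT laser. Of 6 tested, 2 were lower in both libraries, H2-DMa by 2.24-fold and 2.04-fold and H2-DMb1 by 2.17-fold and 2.45-fold, and 0 were higher. Among 12 MHC class I genes 0 reached 2-fold. Of 20 immediate early genes, 2 were higher, Nr4a1 and Dusp5 (2.39-fold and 2.20-fold), and only Ier3 was lower. None of 10 heat shock genes and none of 3 cell cycle genes reached 2-fold. Of 20 glycolysis and hypoxia genes, 2 were higher, the lactate transporter gene Slc16a3 at 2.24-fold and 2.90-fold and Egln3, which had 20 against 1 UMIs and 20 against 0, and Ndrg1 was lower by 2.71-fold and 3.52-fold. Of 16 vascular genes, Pdgfb, a pericyte-attracting growth factor, was 2.92-fold and 7.13-fold higher, whereas Thbs1 was 4.51-fold and 2.57-fold lower, beside Mmp8.

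At the surface, non-classical monocytes carried more CD43 and less Ly-6C than classical monocytes, the former in the direction of its transcript Spn. The gene of Ly-6C belongs to the classical rule, so only CD43 is independent of both rules. The median non-classical monocyte held 70.5 CD43 ADT UMIs in WT control (quartiles 46 and 93) and 57.5 in WT laser (32 and 81), against 26 and 18 in classical monocytes. For Ly-6C the medians were 1 and 2 against 14.5 and 13. CD11a, the protein of Itgal, had medians of 46.5 and 31 against 31 and 16, and CD11c 3 and 1 against 0 and 0.

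Ratios of summed ADT counts depended on 3 barcodes. These 3 WT laser members held 125618 of the 219212 ADT UMIs of the class in that library, 118326 of them Ly-6C. With them, 0 of 79 tested proteins (0%) were at least 2-fold higher than in classical monocytes in both libraries and 2 (2.53%), CD103 among them, were lower, and the Ly-6C ratio in WT laser was 2.17, on the higher side. Without barcodes of over 5000 ADT UMIs, a limit chosen after the values were seen, 2 of 79 (2.53%) were higher and 4 (5.06%) lower. CD43 was then 2.43-fold (2.34 to 2.53) and 3.30-fold (3.16 to 3.45) higher and CD11c 3.47-fold (2.88 to 4.20) and 3.01-fold (2.44 to 3.74). Ly-6C was 4.84-fold and 5.67-fold lower, CD103 2.32-fold and 2.51-fold and CD36 2.00-fold and 3.04-fold. The medians above are not moved by these barcodes.

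Protein and transcript went in different directions for CD36, whose transcript was higher and whose tag was lower in non-classical monocytes, at medians of 0 and 0 against 1 and 2 ADT UMIs. CD115 (the CSF1 receptor) and CD192 (CCR2) had a median of 0 ADT UMIs in non-classical monocytes of both libraries, and CD192 differed by ratios of only 0.870 and 0.947 from classical monocytes. CX3CR1 protein had medians of 2 and 2 against 2 and 3 in classical monocytes and 9 and 10 in microglia. CD11b stood at 75 and 54.5 against 91 and 75, and CD45 at 238 and 157 against 310.5 and 195. Since no isotype control was counted, low ADT medians cannot be told apart from nonspecific binding.

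**Figure D3:**
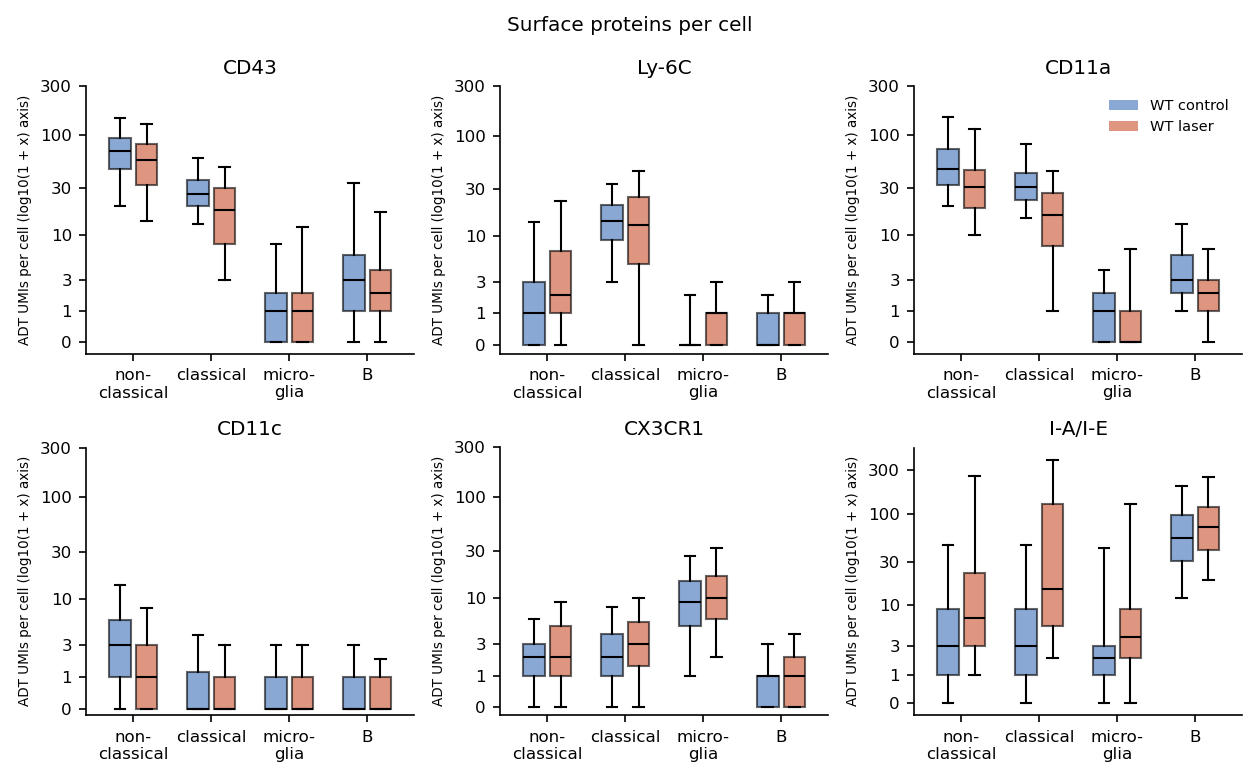
ADT UMIs per cell (log-scaled y axis) of 6 surface proteins in non-classical monocytes, classical monocytes, microglia and B cells of WT control and WT laser; boxes show median and quartiles and whiskers the 5th and 95th percentiles. CD43 is higher and Ly-6C lower in non-classical than in classical monocytes in both libraries, and I-A/I-E has its highest median in B cells.

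Non-classical monocytes were not uniform. In 38 WT control and 32 WT laser cells, Ace, Treml4 and Adgre4 were detected without Cd300e and Eno3, and these cells were compared with the 115 and 69 cells with all 5 genes. The median CD43 was 36 and 26.5 ADT UMIs in the former against 79 and 70 in the latter, and the median Ly-6C was 7.5 and 11.5 against 0 and 1. The cells with 3 genes were not the shallower ones, with a median of 8609 and 10033.5 UMIs against 7041 and 7450.

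At the transcript level 55 of 3837 genes (1.43%) were at least 2-fold higher and 136 (3.54%) at least 2-fold lower in the cells with these 3 genes in both WT libraries. Ly6c2 was 5.48-fold (4.13 to 7.32) and 15.8-fold (10.1 to 25.7) higher and was detected in 50.0% and 62.5% of these cells against 8.70% and 11.6%. Fn1 was 6.38-fold and 8.65-fold higher, Ccr2 6.88-fold and 4.45-fold, Gas7 5.90-fold and 7.88-fold and Vim (vimentin) 2.92-fold and 2.86-fold. Slc12a2 was 4.40-fold and 8.47-fold lower, Fabp4 5.07-fold and 5.64-fold, Pparg 3.08-fold and 4.86-fold, Bcl2 3.07-fold and 3.5-fold and Spn 2.28-fold and 2.60-fold. Nr4a1 was lower by 1.94-fold and 2.02-fold. Cx3cr1 differed less, with ratios of 0.691 and 0.890. These cells therefore held values between the classical class and the cells with all 5 genes for the classical genes Ly6c2 and Fn1 and for CD43 and Ly-6C protein.

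**Figure D4:**
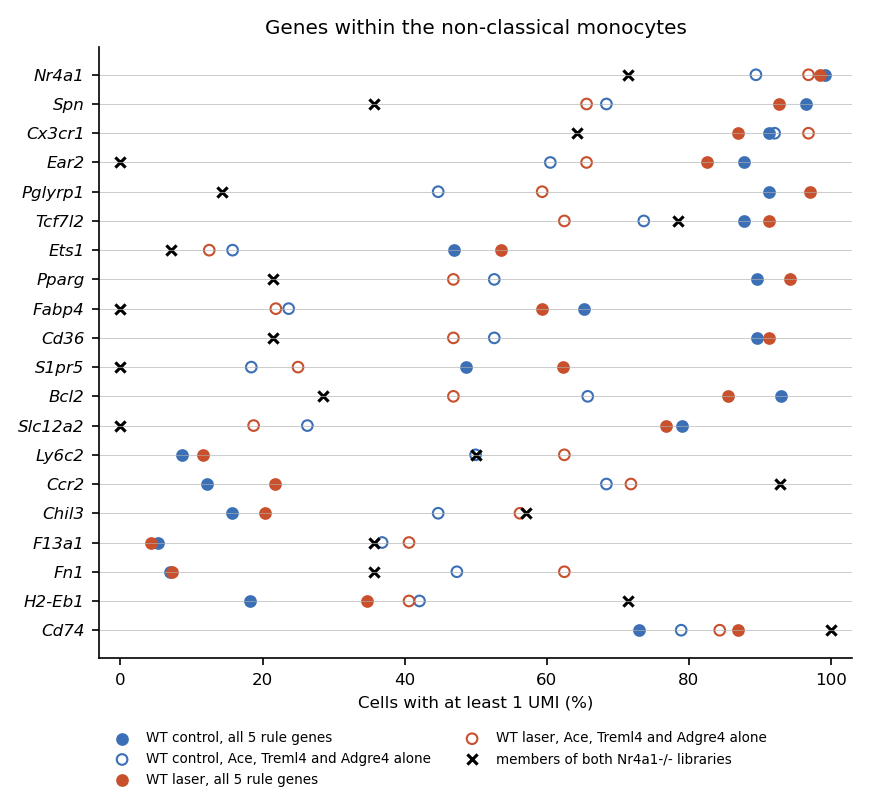
Percent of cells with at least 1 UMI (axis in percent) of selected genes in non-classical monocytes with all 5 rule genes, in those with Ace, Treml4 and Adgre4 alone, and in the 14 Nr4a1-/- cells. Ly6c2 is detected in more cells of the set with 3 genes (50.0% and 62.5%) than of the set with all 5 (8.70% and 11.6%).

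Of the 14 Nr4a1-/- cells that met the rule, 12 were of the kind with Ace, Treml4 and Adgre4 alone. In 0 of them was a UMI found of Ear2, Fabp4, Slc12a2, S1pr5, Ccdc192 or Dnah12, with an exact upper bound of 24.2 CPM for each. In the WT cells with the same 3 genes, Ear2 stood at 189 CPM, Slc12a2 at 56.5, Fabp4 at 46.1 and S1pr5 at 32.7, above that bound, but Ccdc192 at 19.3 and Dnah12 at 7.43 lay below it, so their absence was not detectable at this depth. Spn had 16 UMIs, or 105 CPM, against 375 CPM over all WT members and 198 CPM in the WT cells with the same 3 genes. The median CD43 was 26 and 11 ADT UMIs in the control and laser libraries, against 32 and 8 in their classical monocytes and 36 and 26.5 in the WT cells with the same 3 genes. The laser value rests on 3 cells, and these counts are not scaled to ADT depth, which differed. The median ADT total was 462 and 261 UMIs in the Nr4a1-/- cells, 409.5 and 181 in their classical monocytes and 581.5 and 465 in those WT cells. Over the 14 cells Ccr2 stood at 459 CPM against 145 over all WT members, and the MHC class II genes H2-Aa at 3675 against 712 and Cd74 at 11675 against 2502. For Ccr2, H2-Aa and Cd74 the WT cells with the same 3 genes held 312, 1156 and 3661 CPM. Of single genes, 17 of 18 Clec9a UMIs and 56 of 64 Lyz1 UMIs lay in 1 cell. These 14 cells met the rule, but part of them also met the classical rule. Ear2, Slc12a2, Fabp4 and S1pr5 were not detected in the 14 cells, which are not described further as non-classical monocytes.

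Laser treatment was set against control within the WT members, which asks whether the cells that remain in the sorted fraction differ in state. Of 7610 genes with at least 20 UMIs, 173 (2.27%) were at least 2-fold higher and 127 (1.67%) at least 2-fold lower in WT laser, with a median log2 ratio of -0.01 over all genes. Some of these rest on 1 cell, so the counts were repeated with the highest member of each gene left out, a step chosen after the values were seen: 116 of 7225 (1.61%) were then higher and 117 (1.62%) lower.

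The identity genes of the class stayed within 2-fold between WT laser and WT control, but some differed by less, among them Ear2 and Hes1, given below. None of the 15 known non-classical genes, 27 transcription factor genes, 18 survival genes or 12 MHC class I genes reached 2-fold in either direction. Nr4a1 was 1.01 (0.941 to 1.09) times, Spn 0.839 (0.751 to 0.937) times, Cx3cr1 0.917 (0.824 to 1.02) times and Tcf7l2 0.963 (0.862 to 1.08) times its WT control level. Cd36 stood at 0.985 (0.899 to 1.08) and Pparg at 0.868 (0.788 to 0.956).

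MHC class II genes, which present antigen to helper T cells, had the highest median in WT laser among the lists with at least 3 genes tested. Of 7 tested, 6 were at least 2-fold higher, with a median log2 ratio of 1.51. The list of dendritic cell genes, with only 2 genes tested, had a higher median of 1.86. H2-Eb1 (chr17:34305867-34316674, plus strand, GRCm38/mm10), a beta chain of the class II molecule, had 445 UMIs in 53 of 242 WT control cells and 1614 UMIs in 65 of 172 WT laser cells, 4.41-fold higher (3.97 to 4.91) by CPM. H2-Aa was 3.00-fold (2.75 to 3.28) higher, H2-Ab1 2.89-fold (2.65 to 3.15), the invariant chain gene Cd74 2.10-fold (2.01 to 2.20), and H2-DMb1 2.50-fold. The class II transactivator gene Ciita had 9 UMIs without and 21 with laser, a ratio of 2.84. H2-DMa, at 1.5, was the member that did not reach 2-fold. The same genes were higher in other myeloid cells of the WT laser library, H2-Eb1 by 6.16-fold in classical monocytes and 3.40-fold in microglia, and close to level in B cells at 1.17-fold.

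High counts of MHC class II transcripts lay in a minority of cells. After thinning to 2000 UMIs, 24.1% (18.8 to 29.97) of WT control and 37.9% (30.5 to 45.6) of WT laser members held a UMI of H2-Aa, H2-Ab1 or H2-Eb1, and 5.81% (3.21 to 9.55) and 13% (8.34 to 19.0) held at least 10. Without thinning, 38.0% of WT control and 66.3% of WT laser members held a UMI, and 28 members (11.6%) and 41 members (23.8%) held at least 10. Those 28 and 41 cells had median I-A/I-E protein of 27.5 and 46 ADT UMIs, against 3 and 6 in the other members, so cells high in transcript were also higher in protein. Their median CD43 was 40 and 47 against 74 and 62, and Ly6c2 was detected in 35.7% and 46.3% of them against 17.8% and 19.8%. Genes of another cell type were also more frequent in them: 28.6% and 63.4% held at least 2 genes of 1 such list, against 21% and 28.2% of the other members. The 28 and 41 cells were also deeper, with a median of 8564.5 and 10988 UMIs against 6893.5 and 7313. The shares with Ly6c2 and with genes of another type were not taken at equal depth.

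Leaving out every member with at least 2 genes of 1 other cell type's list kept 189 and 109 cells and removed the 2-fold call for the class II group, 0 of 6 genes then passing. H2-Eb1 was then 1.53-fold (1.29 to 1.83), H2-Aa 1.23-fold, H2-Ab1 1.53-fold and Cd74 1.37-fold higher, with a median log2 ratio of 0.56. With at least 4 rule genes required, 5 of 6 passed and H2-Eb1 was 6.01-fold (5.23 to 6.92) higher. Whether other cells or their RNA were captured with these members was not tested.

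At the protein level I-A/I-E, the class II protein, was higher in WT laser. Its median was 3 ADT UMIs (quartiles 1 and 9) in WT control and 7 (3 and 23) in WT laser, against 3 and 15 in classical monocytes and 55 and 72 in B cells. Over all barcodes, 11 of 86 proteins (12.8%) were at least 2-fold higher and 50 (58.1%) lower, and without barcodes of over 5000 ADT UMIs 16 (18.6%) were higher and 12 (14%) lower. In the latter setting I-A/I-E made up 19.5 per 1000 ADT UMIs without and 104 with laser, a ratio of 5.30 (5.09 to 5.51), beside 4.47 in classical monocytes, 2.31 in microglia and 1.44 in B cells. Several other proteins of this set were also different in B cells. CD64 was at a ratio of 32.1 in non-classical monocytes and 14.5 in B cells, CD106 at 20.6 and 29.2, CD88 at 5.46 and 3.53, Ly-6C at 2.02 and 2.11, and F4/80 at 0.326 and 0.300. These tags thus differed between the libraries in B cells as well. CD43 stood at 1.10 in non-classical monocytes.

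**Figure D5:**
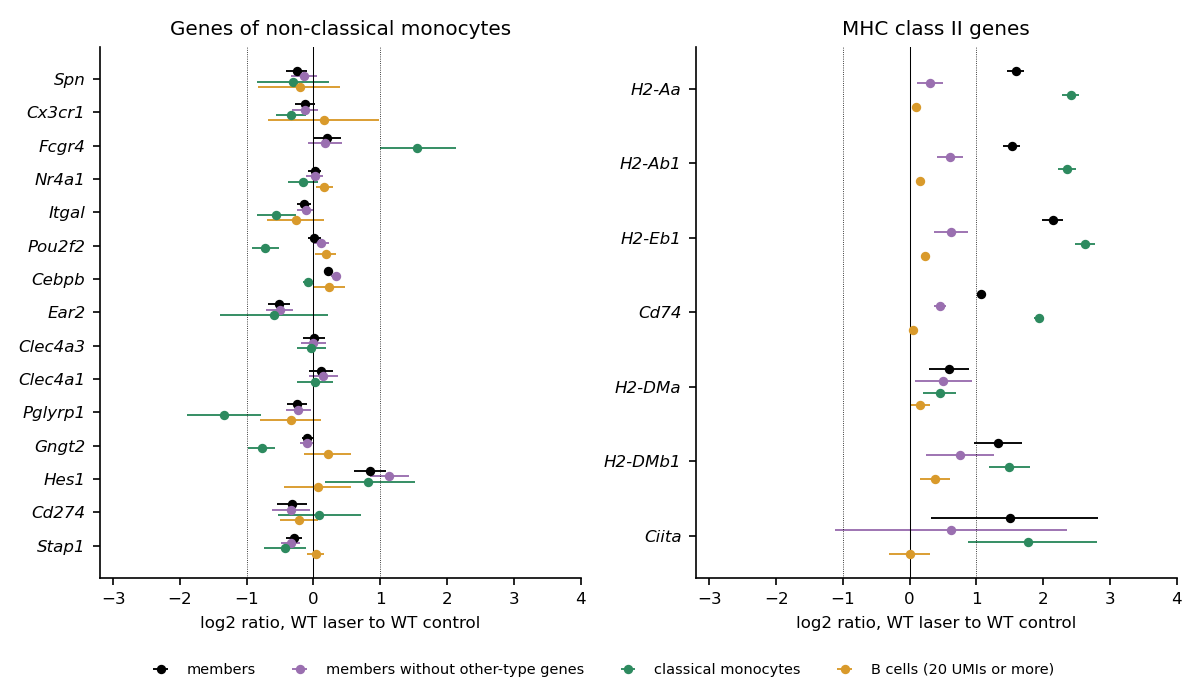
Log2 ratio of CPM, WT laser over WT control, for known non-classical genes and MHC class II genes in non-classical monocytes, in those without genes of another cell type, in classical monocytes and in B cells; bars are 95% counting intervals. Non-classical genes lie between -1 and 1 in all non-classical members, with Hes1 highest and Ear2 lowest, whereas H2-Eb1 and H2-Aa lie above 1 in all non-classical members and below 1 without the cells that hold genes of another type.

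Below the 2-fold limit, several genes typical of the class differed by amounts clear of counting error. They are named here after their values were seen. Ear2 had 836 UMIs in WT control and 482 in WT laser, 0.701 (0.626 to 0.785) times, and was detected in 51.0% (44.5 to 57.5) and 34.9% (27.8 to 42.6) of thinned members. Fabp4 stood at 0.547 (0.466 to 0.641) times, with 34.4% and 24.3% of thinned members, and Bcl2 at 0.660 (0.592 to 0.735) times, with 51.9% and 40.2%. In classical monocytes Ear2 was at 26.6 CPM in WT control and 17.6 in WT laser, whereas Fabp4 was detected there only in WT laser. Bcl2 was also at 0.466 (0.271 to 0.791) in classical monocytes and 0.693 (0.518 to 0.929) in microglia, and at 0.884 (0.770 to 1.01) in B cells. Hes1, a target of Notch signaling, was higher in WT laser at 1.80 (1.53 to 2.12) times, with 19.1% (14.3 to 24.6) and 30.2% (23.4 to 37.7) of thinned members. Its ratio was 1.77 (1.12 to 2.86) in classical monocytes, 0.962 (0.664 to 1.40) in microglia and 1.05 (0.734 to 1.48) in B cells, and 2.20 in members without genes of another cell type.

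Inflammatory and lipid genes were higher in part and rested on few cells. Of 29 interferon-stimulated genes, 7 were higher and 1 lower (median log2 ratio 0.29), and 4 and 1 without the highest member of each gene. Ifit1 had 47 of its 57 UMIs and Cxcl10 66 of its 118 in 1 cell, whereas Gbp5 (2.52-fold, 1.72 to 3.73) and Ifi47 (2.38-fold, 1.43 to 4.07) were spread over more cells. Of 25 cytokine and chemokine genes, 8 were higher and 1 lower (median 0.03), and 4 and 0 of 22 without the highest member. Ccl7 was 4.78-fold higher and detected in 6.51% (3.29 to 11.3) of thinned WT laser members against 3.01% (1.45 to 5.47) of B cells, and these intervals overlap. Of 23 lipid and scavenger genes, 5 were higher and 0 lower, and 2 were higher without the highest member. Osteopontin (Spp1) had 8 UMIs in 5 WT control cells and 138 in 46 WT laser cells, 21-fold (10.4 to 49.6). After thinning it was detected in 12.4% (7.86 to 18.4) of WT laser members, 7.83% (5.18 to 11.3) of B cells and 13.2% of microglia. The intervals of its share in members and in B cells, which should lack it, thus overlapped. Its laser to control ratio in B cells was 5.19 (3.29 to 8.41), below that in members. Why B cells held Spp1 UMIs was not tested.

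Among 16 vascular genes, 3 were higher in WT laser, the protease gene Mmp19, the protease inhibitor gene Timp2 and the growth factor gene Areg, and Mmp8 was lower. Without the highest member of each gene 3 were higher and 0 lower of 14, Mmp8 then holding too few UMIs to be counted. Timp2 was 3.46-fold (2.56 to 4.74) higher, but 1.54-fold (0.658 to 3.61, 13 against 13 UMIs) without members holding genes of another cell type. Mmp19 had 14 UMIs in 8 cells without and 92 in 13 cells with laser (7.99-fold, 4.53 to 15.2). Of 23 Fc receptor, complement and efferocytosis genes, C1qa, C1qb and C1qc were higher, by 2.46-fold, 2.74-fold and 2.85-fold, and Mertk lower. Without the highest member of each gene C1qb alone of the 3 kept 2-fold, at 2.20-fold, and without members above the 95th percentile of UMIs the ratios were 0.860, 1.30 and 1.28. C1qb was detected in 7.10% of thinned WT laser members and 8.13% of B cells, so its share in members was not above that in cells that should lack it. Of 18 adhesion genes 1 was higher and 0 were lower, and of 10 classical monocyte genes only Vcan was. In the immediate early (21 genes) and glycolysis and hypoxia (21 genes) groups 1 gene each was higher and 0 lower, and in the heat shock group (10 genes) Hsph1 was lower.

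Among genes named by rank, many rested on 1 cell. Of those higher in WT laser, Igfbp5 had 99 of 99 UMIs, Dcn 58 of 58, Lum 21 of 22, Cst7 42 of 47, Tbc1d4 90 of 151 and Ccr7 54 of 81 in 1 member. Among those lower, Retnla had 367 of 413, Mertk 37 of 61 and Lyz1 51 of 82 in 1 member. More evenly spread were Creld2, an endoplasmic reticulum chaperone gene, at 3.65-fold lower (32 cells without and 8 with laser), Fhit at 4.45-fold lower (23 and 6 cells) and Lrrc4 at 2.32-fold lower (81 and 32 cells). Cmss1 was lower by 2.26-fold, and its ratio of 0.442 stood beside 0.511 in classical monocytes, 0.450 in microglia and 0.467 in B cells, so it differed between the libraries in every class compared.

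Genes of other cell types were present in part of the members and more often in WT laser. At least 2 genes of 1 such list were detected in 53 of 242 members (21.9%) in WT control and 63 of 172 (36.6%) in WT laser. These counts were made without thinning, and WT laser members were deeper, with a median of 8078.5 against 7115.5 UMIs. Depth and the laser difference in these counts therefore cannot be told apart. Resident macrophage genes accounted for 17 and 33 cells, with a summed level of 458 and 869 CPM over 9 genes, and microglia genes for 17 and 25 cells, with 283 and 300 CPM over 7 genes, and 0 genes of either list were at 0 UMIs. Neutrophil genes were found in 17 and 13 cells (3527 and 4151 CPM, mostly S100a9 with 3594 and 3523 UMIs and S100a8 with 2896 and 2675), B cell genes in 17 and 10, dendritic cell genes in 3 and 7, T cell genes in 4 and 3 and NK cell genes in 2 and 1. Retina, endothelium, erythrocyte and platelet lists gave 0 or 1 cell per library. Without all such members the share of non-classical monocytes was 5.02% in WT control and 2.88% in WT laser, a ratio of 0.572.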

How the data were processed

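Transcripts and ADTs of the same barcodes were measured in 4 libraries, 1 per group, whose 8 sample records (RNA and ADT) were matched by title. The deposited values are raw UMI counts per gene or antibody, made by the authors with Cell Ranger 7.0.1 against mm10 per the submitters' processing notes. The study's methods name a later kit version than the labels, so the chemistry cannot be told. The files hold 32285 genes and 87 antibodies. Python 3.11.15 with numpy 2.4.6, scipy 1.17.1, pandas 2.3.3 and matplotlib 3.10.9 was used, and gene positions came from GENCODE M21.

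Barcodes outside 200 to 5000 genes, or over 15% in mitochondrial share, were dropped. UMIs were summed per library and class and scaled to CPM (ADTs per 1000). Shares have exact Clopper-Pearson intervals and ratios exact conditional binomial intervals at 95%. No p-value was computed, since each group has 1 library, and a call means at least 2-fold with at least 20 UMIs on the higher side. A count of 0 was given a floor of 3 counts. Cells were thinned to 2000 UMIs with seed 1. Microglia were cells with at least 3 of Tmem119, P2ry12, Siglech, Sparc and Gpr34, and B cells those with at least 3 of 5 B cell genes, among them Cd79a, Cd79b, Ms4a1 and Ebf1, and no Csf1r. Some of the named genes and proteins are not reported here. No doublet caller was run. Members with at least 2 genes of 1 list of another cell type, or above the 95th percentile of UMIs, were left out as alternatives. Genes were named by a rule of up to 12 per direction, ranked by the interval bound nearest to 1, and up to 4 per list by size of the log2 ratio, without mitochondrial and ribosomal protein genes, plus Nr4a1 and the rule genes. Genes and proteins named outside this rule were chosen after their values were seen. The ratios and intervals were run on simulated Poisson counts summed per library. That simulation held no variation between cells. It therefore cannot show whether the intervals hold for genes with most UMIs in 1 cell. Alternatives covered the rule, filters, depth, scaling, low counts, the classical rule and the ADT scale. The members and the 27 gene lists were chosen with earlier results of these data known.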

Additional observations from a re-analysis of the deposited data

Results flagged for a closer look

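In all, 10 genes were flagged because their laser to control ratio in non-classical monocytes lay on the other side of 2-fold than in classical monocytes of the same libraries. The difference between the classes was not tested for any of them. Il10, an anti-inflammatory cytokine gene, stood at 0.292 in non-classical and 4.64 in classical monocytes, from 25 UMIs in 11 WT control cells and 6 UMIs in 4 WT laser cells. Of the 25 UMIs, 11 lay in 1 cell, and without the highest member the ratio was 0.352 (0.0844 to 1.12). The integrin gene Itga6 stood at 0.370 and 6.96, on 23 and 7 UMIs. The heat-induced gene Zfand2a, at 0.438 and 2.02, was the most evenly spread of them, with 50 UMIs in 40 cells and 18 UMIs in 15 cells and at most 3 in a cell. Mertk stood at 0.199 and 2.96, and Cd163, a hemoglobin scavenger receptor gene, at 0.252 and 3.81, with 22 of its 29 WT control UMIs in 1 cell. Lyz1 stood at 0.178 and 6.51 and Retnla at 0.189 and 13.9, both with most of their WT control UMIs in 1 cell. The complement gene C4b stood at 0.116 and 5.08 on 21 and 2 UMIs, and Gm4951 at 0.122 and 2.58 on 30 and 3 UMIs, which lay in 2 cells of each library. The classical ratios of C4b, Itga6 and Cd163 rested on few WT control UMIs, 3, 4 and 4, and the 3 of C4b lay in 1 cell. Cxcl9, a chemokine gene induced by interferon gamma, went the other way at 6.08 and 0.486, with 56 of its 65 WT laser UMIs in 1 cell, and the classical ratio without the highest cell was 1.23.

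In WT laser, 8 barcodes that met the gene rule lay outside the filters, all above the limit of 5000 detected genes, against 3 in WT control.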

How the results depend on the processing

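No paired analysis was possible because each group has 1 library and the results come from no test. Of 142 alternative values for the main results, 95 stayed within the set limits, 47 moved and 0 reversed, and of 3332 for single genes and proteins 2704 stayed, 607 moved and 21 reversed. Causes were not tested. With the WT libraries before the Nr4a1-/- libraries and control before laser, shares were 7.97%, 6.25%, 2.13% and 0.970% with 2 of the 5 genes, 4.94%, 3.40%, 0.0495% and 0% with 4, 4.04%, 2.62%, 0% and 0% after thinning, and 5.02% and 2.88% in WT without members holding genes of another type (laser to control ratio 0.572). With thinning and 2 genes, chosen after seeing the data, the last was 0.569% (0.137 of WT laser). The Nr4a1-/- to WT ratios were 0.267 and 0.155 with 2 genes, 0.0100 and 0 with 4, and 0 and 0 after thinning.

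Genes higher and lower in WT laser numbered 44 and 82 with members thinned, 378 and 307 with 10 UMIs, 2607 and 2312 with 1 UMI, and 84 were higher without other-type members. Genes lower in non-classical monocytes numbered 110 with 2 rule genes, 105 with members thinned and 360 without other-type members, and with 1 UMI 1204 were higher and 784 lower. Proteins higher in non-classical monocytes numbered 3 with 4 rule genes, 2 with no upper gene limit, 2 per cell, 1 with 3 classical genes and 2 without barcodes of over 5000 ADT UMIs, a limit chosen after seeing the data. Those lower numbered 1 with 2 rule genes, 5 without other-type members, 4 with 3 classical genes and 4 without those barcodes. Proteins lower in WT laser numbered 31 with 4 rule genes, 19 per cell and 12 without those barcodes.

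Log2 laser ratios that reversed were those of Retnla (1.80 with 2 rule genes, 0.44 with no upper gene limit, 2.45 without other-type members, 1.04 without members above the 95th percentile of UMIs), Lyz1 and C4b (1.61 and 0.19 with 2 rule genes), Bnip3 (-0.0081 with 4 rule genes), Vcam1 (0.51 with members thinned), Ccr7, Fabp5, Cxcl16 and Ccl5 (-0.38, -0.21, -0.0046 and -1.84 without other-type members), and C1qa, Ccl5 and Iigp1 (-0.22, -0.66 and 0.72 without members above the 95th percentile of UMIs). Against classical monocytes, S100a8 and S100a9 reversed without other-type members (-7.36 and -8.24 in WT control, -2.31 and -5.44 in WT laser), Ccl12 in WT control without the highest cell of each gene (0.75), and Ly-6C protein in WT laser without barcodes of over 5000 ADT UMIs (-2.50). Igfbp5 and Dcn had 0 WT laser UMIs without their highest member, and Ifit1 0 without other-type members, so their ratios there have no log2 value.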
